A study of Mus musculus with 8 samples.

Results

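The postnatal change of lung macrophages in mice with a Pparg deletion was read from 4 of the 8 arrays of the series. These were the 2 arrays titled as knockout precursors at day 2 after birth and the 2 titled as knockout alveolar macrophages at day 11, and the measure was the difference of day 11 minus day 2. All mice were of C57BL/6 background and carried loxP-flanked Pparg alleles (PPARg fl/fl). Knockout mice carried CD11cCre as well (CD11cCre/PPARg fl/fl), a recombinase under the promoter of the CD11c gene, which acts in macrophages, dendritic cells and other cells that express CD11c. Controls had no Cre, so an effect of Cre itself and of the loss of PPARγ cannot be told apart. The RNA on an array came from cells pooled after sorting from 2 mice. Each group had 2 such pools, called pool 1 and pool 2 here after the replicate number in the titles.

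The cells were sorted live from digested lungs, and the gates changed with age and genotype. Day 2 cells were CD45+, positive for the Adgre1 protein and CD11c high. They had intermediate levels of Siglec-F and CD11b, or else much CD11b and little Siglec-F, and the labels do not say which went with which genotype. Day 11 cells were CD45+, CD11c high, strongly autofluorescent and Siglec-F+. Knockout cells of that age were taken as CD11b high and control cells as CD11b low. The labels call the knockout cells arrested precursors at day 2 and arrested immature precursors at day 11. Age and gate therefore cannot be told apart in the differences below. In bulk RNA, fewer cells of a type and less RNA per cell cannot be told apart either.

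Alveolar macrophages arise from fetal monocytes that seed the lung before birth and mature in the first days of air breathing, under GM-CSF from the epithelium. They take up and break down surfactant lipid and renew themselves in place by division. PPARγ, a nuclear receptor that pairs with RXR and is bound by fatty acids, is induced in them by GM-CSF and turns on genes of lipid uptake, storage and breakdown. As monocytes become tissue macrophages they usually lose chemokine receptors and monocyte adhesion genes.

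The deposited table gave 1 RMA value on the log2 scale for each probe set and array, and 18782 genes were compared. A gene was called, and is said below to have risen or fallen, where limma's adjusted p was under 0.05 (Benjamini-Hochberg over all 18782 genes, 1 mean for each of the 4 groups). Values with ± are log2 differences of day 11 minus day 2 and their SE from this fit, with 2 pools in each group. Levels are log2 RMA signals, given for pool 1 and then pool 2. Every array had a median near 5.35 and nearly the same distribution, so a shift of all genes together cannot be seen.

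The knockout pools were not alike within an age. At day 2, 141 genes differed by more than 1 on the log2 scale between the pools, 134 of them higher in pool 1. The control pools of that age differed so in 19 genes. Pool 1 stood apart in interferon-induced genes. Rsad2, which encodes the antiviral protein viperin, read 10.2 in pool 1 and 4.98 in pool 2 of the day 2 knockouts and 5.38 and 4.39 at day 11. All 58 measured members of the interferon list were higher in pool 1 than in pool 2, by a median of 1.41. At day 11, 65 genes differed by more than 1, with Mmp2, a gelatinase, at 9.68 in pool 1 and 5.61 in pool 2.

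The pools also differed in sex. The Y-linked gene Uty read 4.22 in day 2 pool 1 against 7.56 in pool 2. Xist, the RNA of the inactive X chromosome, read 3.46 in day 11 pool 1 against 10.3 in pool 2. Knockout day 2 pool 1 thus lacked Y-linked signal and knockout day 11 pool 1 lacked Xist signal, while the other knockout pool of each age had both. The day 2 control pools differed in sex as well, with Xist at 10.4 in pool 1 and 3.38 in pool 2. In the day 11 controls it read 9.99 and 9.86. Counts that moved by over 1.5 times and calls that were lost without a pool are given beside the result or, for single interactions, in the closing section.

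The labels were checked against genes of the gates and of the cell type. Itgax, the gene for CD11c, rose from 11.1 and 11.1 to 11.7 and 11.7. Siglecf rose from 7.13 and 7.46 to 8.73 and 8.85 (1.49 ± 0.11, limma adjusted p = 2.2e-04), still under the 10.9 and 10.7 of day 11 controls. Siglec-F was part of the gates, so the rise of its gene is no finding here. Itgam, the gene for CD11b, read 10.98 and 10.8 at day 2 and 10.9 and 10.7 at day 11 in knockout cells. In control cells Itgam went from 7.87 and 7.79 to 6.22 and 6.32, and the 2 age changes differed by 1.44 ± 0.14 (limma adjusted p = 0.0023). The genotypes differed in Itgam at both ages. CD11b was part of the gates, so Itgam is no finding here either. General macrophage genes were bright throughout, with Cd68 at 12.2 and 12.1 and then 12.2 and 12.2 and Adgre1, a receptor named in the day 2 gate, at 11.1 and 11.1 and then 11.1 and 11.2. Car4, a carbonic anhydrase of alveolar macrophages, read 11.9 and 12.03 and then 11.99 and 12.2.

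Pparg itself was bright on every array. It read 10.6 and 10.7 in knockout cells at day 2 and 11.3 and 11.4 at day 11, a rise of 0.69 ± 0.08 (limma adjusted p = 0.0017). Control cells read 10.9 and 11.01 and then 11.2 and 11.1. The labels do not say where these probes lie relative to the deleted part, so the level checks nothing about the deletion.

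Several genes of mature alveolar macrophages stayed low in knockout cells. Fabp4, a fatty acid carrier, was at 6.05 and 6.34 at day 2 and 5.90 and 6.39 at day 11 in knockout cells, and its difference of -0.05 ± 0.16 was not called. Control cells read 9.11 and 9.10 and then 9.30 and 9.36. Marco, a scavenger receptor for bacteria and particles, read 5.93 and 5.93 and then 6.03 and 5.45 in knockout cells, with 9.49 and 9.52 in day 11 controls. Krt79, a keratin gene of the list of alveolar macrophage genes, read 5.55 and 5.61 and then 5.44 and 5.83 in knockout cells. Without day 11 pool 1, Marco fell by 0.48 with a call (limma adjusted p = 0.00996). At day 11 both knockout pools lay far under both controls for Fabp4 and Marco.

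In all, 2915 genes were called in knockout cells between day 2 and day 11, which is 15.5% of the genes tested. Of these, 1655 were higher at day 11 (8.81%) and 1260 lower (6.71%). Every list count for knockout cells with all arrays is to be read beside these 2 shares. For control cells the shares of all genes were 2.81% higher and 2.49% lower. Where a pool was left out the total of called genes changed too, so these shares do not apply to such list counts. Differences of at least 2-fold were more often falls, 254 against 116 rises. The counts moved with single pools. Without day 2 pool 1, 815 genes were called higher and 817 lower. Without day 11 pool 2 the counts were 818 and 723, and without day 11 pool 1 they were 1073 and 929. With each array centred on the median of 16 housekeeping genes, 1130 were higher and 1115 lower, so that the excess of rises over falls was not kept under that scaling.

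Control cells were read over the same days on 4 other arrays. They gave 528 genes higher at day 11 (2.81%) and 468 lower (2.49%). A total of 511 genes were called in the same direction in both genotypes, 283 higher and 228 lower. This is 51.3% of the control calls and 17.5% of the knockout calls. Another 35 genes were called in opposite directions. Across the 18782 genes the age changes of the 2 genotypes, which share no array, correlated with r = 0.452 (rho 0.398). This is a description across genes, which are not independent replicates.

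**Figure D1:**
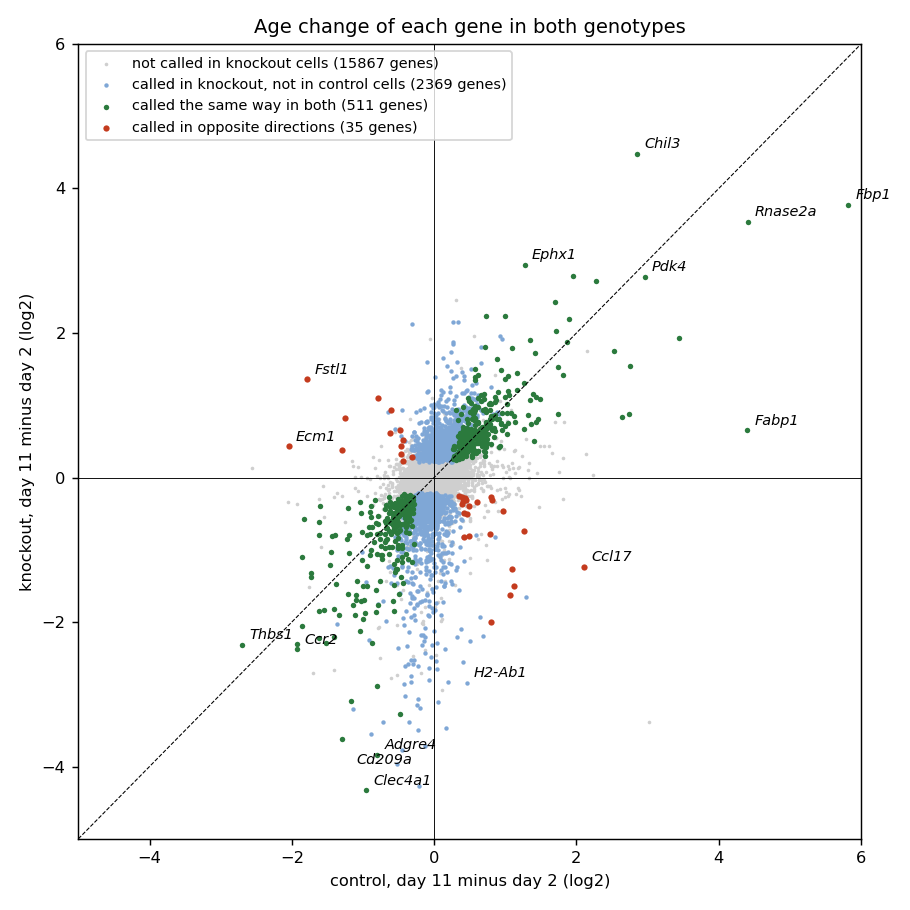
Each point is 1 of 18782 genes, with the day 11 minus day 2 difference (log2) in control cells on the horizontal axis and in knockout cells on the vertical axis, and the dashed line marks equal change. The 511 genes called the same way in both lie at the upper right and lower left, while falls such as Cd209a (-3.72 in knockout and -0.13 in control cells) lie below 0 near the vertical axis.

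The largest rise was that of Chil3, which encodes a secreted chitinase-like protein (Ym1) abundant in alveolar macrophages and also made by some monocytes. It read 6.17 and 7.48 in the knockout pools at day 2 and 11.1 and 11.5 at day 11. Both day 11 values were above the day 2 values, which the rule for the 12 largest rises and falls required. Such a lack of overlap between the ages was seen in 53.8% of all genes, in either direction. The rise of 4.48 ± 0.35 was 22.3-fold (limma adjusted p = 2.5e-04). In control cells Chil3 went from 8.92 and 9.12 to 11.8 and 11.9. The knockout pools thus began lower than the controls and ended within 1 log2 unit of them.

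Fbp1, the gluconeogenic enzyme fructose-1,6-bisphosphatase, rose from 3.82 and 3.74 to 6.80 and 8.32 in knockout cells. In control cells it rose from 4.04 and 4.23 to 9.48 and 10.4. The difference between the knockout rise of 3.78 ± 0.46 and the control rise of 5.82 ± 0.46 was not called (interaction -2.04 ± 0.65, limma adjusted p = 0.17). Rnase2a, an eosinophil-type ribonuclease with close relatives whose transcripts may share its probes, rose from 6.67 and 6.85 to 9.64 and 10.97. For both genes day 11 pool 2 was the higher pool.

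Pdk4, a kinase that shuts pyruvate out of the mitochondrion and a known target of PPAR receptors, rose in both genotypes. In knockout cells it went from 5.62 and 6.15 to 8.61 and 8.72, a rise of 2.78 ± 0.18. In controls it went from 5.46 and 5.05 to 8.23 and 8.20, a rise of 2.96 ± 0.18. The interaction was -0.18 ± 0.26 (limma adjusted p = 0.79), so a difference between the rises was not shown. Slpi, a secreted inhibitor of neutrophil elastase, rose by 1.88 ± 0.08 in knockout and 1.86 ± 0.08 in control cells. Sorbs3, which encodes the adhesion adaptor vinexin, rose by 2.72 ± 0.12 and 2.28 ± 0.12. Lipf, named as a gastric lipase, rose by 1.94 ± 0.25 and 3.44 ± 0.25, and Slc9a4, a sodium-proton exchanger, by 2.19 ± 0.23 and 1.90 ± 0.23. Ranked by the smaller of the 2 genotypes' rises, these genes and Chil3, Fbp1 and Rnase2a were the 8 largest rises called in both.

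The list of alveolar macrophage genes had 36 measured members, of which 18 rose in knockout cells and 1 fell. Siglecf is among these rises and its protein was part of the gates, so the count is not free of the gates. Their median difference was 0.30, beside 0.01 over all genes. In control cells 10 rose and none fell (median 0.18). The knockout count was 12 without day 2 pool 1 and 11 without day 11 pool 2. Ctsk, the collagen-cleaving cathepsin K, rose from 10.4 and 10.4 to 11.5 and 11.5. Krt19, a keratin, rose from 5.20 and 6.41 to 7.60 and 7.62 and stayed far under the 11.4 and 11.5 of day 11 controls. Cidec, which coats lipid droplets, rose from 5.93 and 6.23 to 7.09 and 6.80, by 0.86 ± 0.12 in knockout and 0.85 ± 0.12 in control cells. The rise thus took in about as many members as it left out, with Fabp4, Marco and Krt79 among those not called.

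**Figure D2:**
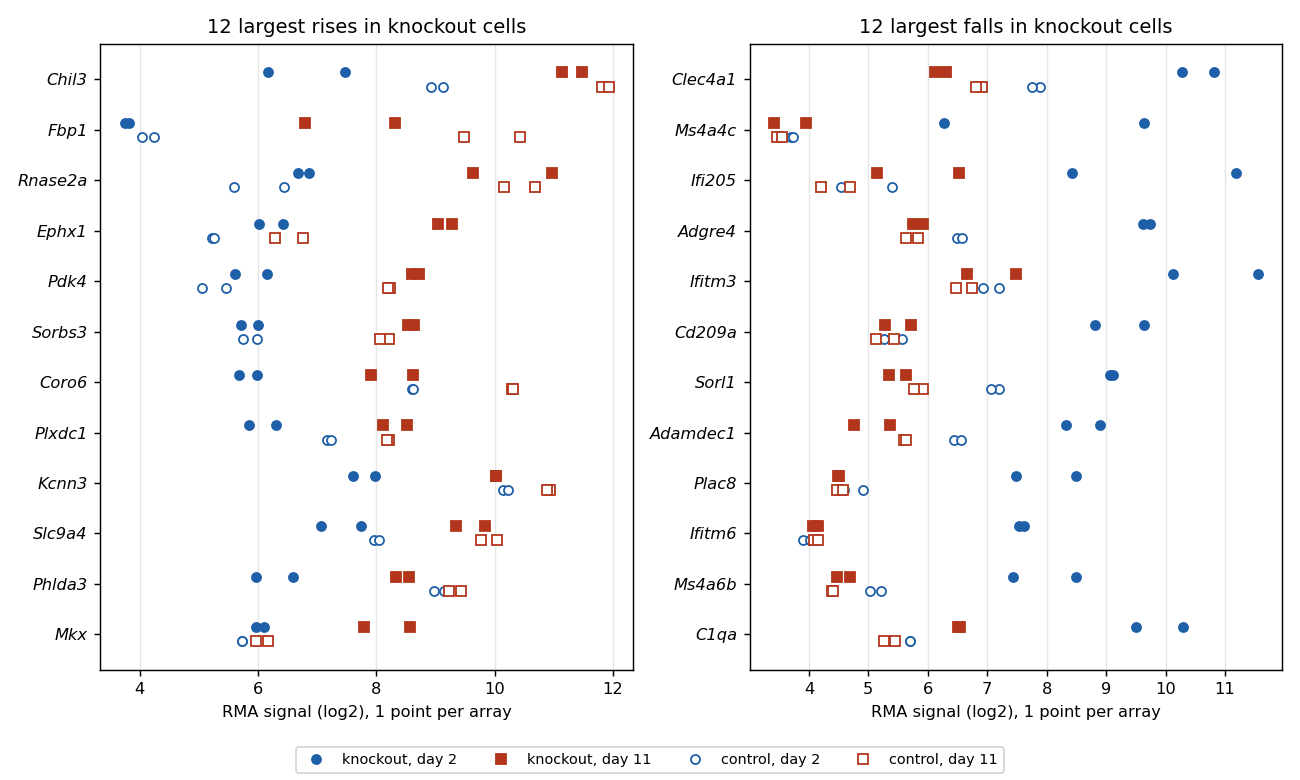
RMA signal (log2) on each of the 8 arrays for the 12 largest rises and the 12 largest falls among genes called in knockout cells, with filled symbols for knockout pools, open symbols for control pools, circles for day 2 and squares for day 11. For Chil3 the day 11 knockout pools (11.1 and 11.5) lie just under the day 11 controls (11.8 and 11.9), and for Adgre4 they (5.75 and 5.93) lie beside them (5.64 and 5.83).

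Several of the largest rises went further in knockout than in control cells. Ephx1, the microsomal epoxide hydrolase, rose from 6.01 and 6.42 to 9.04 and 9.27 in knockout cells and from 5.23 and 5.26 to 6.75 and 6.28 in controls (interaction 1.67 ± 0.25, limma adjusted p = 0.015). Kcnn3, a calcium-activated potassium channel, rose by 2.23 ± 0.11 against 0.72 ± 0.11 in controls (interaction adjusted p = 0.0036, limma). Plxdc1, a plexin-domain receptor, rose by 2.24 ± 0.16 against 0.998 ± 0.16 (interaction adjusted p = 0.033, limma). All 3 differences between the genotypes were called with all arrays. That of Kcnn3 held in all 13 alternative settings tried. That of Ephx1 was lost without either control day 2 pool (limma adjusted p up to 0.0755). That of Plxdc1 was lost without any 1 control pool, without knockout day 11 pool 1 and with a replicate block (limma adjusted p up to 0.129). Phlda3, a p53 target that restrains AKT, rose from 5.97 and 6.59 to 8.33 and 8.55, while the control change of 0.27 ± 0.19 was not called. Mkx, a homeobox gene known from tendon, rose from 5.96 and 6.10 to 7.79 and 8.57, with a control change of 0.34 ± 0.22. The interactions of Phlda3 and Mkx were called and were lost without either control day 2 pool or control day 11 pool 1 (limma adjusted p up to 0.068 and 0.105). That of Mkx was lost without control day 11 pool 2 or knockout day 2 pool 1 as well. Coro6, a coronin, rose by 2.43 ± 0.20 in knockout and 1.70 ± 0.20 in control cells, and a difference between these rises was not called (limma interaction adjusted p = 0.25).

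Genes of lipid handling moved in both directions. Of 35 measured PPAR target and lipid droplet genes, 10 rose and 5 fell, with a median of 0.05. Mgll, the lipase that frees the last fatty acid from a glyceride, rose from 7.86 and 8.77 to 9.96 and 9.96. Cideb, a lipid droplet protein, rose from 7.46 and 8.01 to 8.73 and 9.11. Lpin1, a phosphatidate phosphatase, rose by 0.96 ± 0.16. In the other direction, Dgat1, which makes triglyceride, fell from 9.79 and 9.58 to 9.07 and 8.71. Among 28 genes of fatty acid oxidation 6 rose and 1 fell. That count came to 2 rises without day 2 pool 1 and to 2 without day 11 pool 1. Ehhadh, a peroxisomal enzyme of the pathway, rose by 0.78 ± 0.14, and this call held in all 16 alternative settings.

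Sterol genes were split as well. In the list of cholesterol efflux and LXR genes 5 of 17 rose and 5 fell. Ch25h, which makes the signalling sterol 25-hydroxycholesterol, rose from 9.27 and 8.90 to 10.4 and 10.9 in knockout cells and from 6.41 and 6.19 to 9.04 and 9.07 in controls. Abca9, a lipid transporter of the ABCA family, fell from 7.64 and 7.77 to 6.12 and 6.04, with 4.66 and 4.47 in day 11 controls. Apoc2, an apolipoprotein that activates lipoprotein lipase, fell by 1.04 ± 0.11 in knockout cells, and its control change was -1.19 ± 0.11. Cyp27a1, a sterol hydroxylase, fell from 8.47 and 8.76 to 7.80 and 7.91, and this fall differed from the control change of 0.18 ± 0.10 (interaction -0.94 ± 0.15, limma adjusted p = 0.016). This interaction was lost without any 1 control pool and without knockout day 11 pool 1 (limma adjusted p up to 0.08). The 5 rises came to 2 without day 2 pool 1, to 2 without day 11 pool 1 and to 3 without day 11 pool 2. Of 20 genes of cholesterol biosynthesis 2 rose and 1 fell, which is near the 8.81% and 6.71% of all genes. Lss, lanosterol synthase, rose by 0.64 ± 0.10.

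Monocyte genes fell. Clec4a1, a C-type lectin receptor of monocytes, had the largest fall, from 10.8 and 10.3 at day 2 to 6.12 and 6.31 at day 11 (-4.33 ± 0.16, limma adjusted p = 1.0e-05). In control cells Clec4a1 was already at 7.89 and 7.75 at day 2 and went to 6.91 and 6.81. At day 11 the knockout pools lay below the controls. Plac8, a small protein of inflammatory monocytes, fell from 8.49 and 7.49 to 4.50 and 4.48. Treml4, a receptor of the non-classical monocyte, fell from 9.84 and 10.2 to 7.37 and 7.19 and left the level of the controls, which read 9.86 and 10.1 and then 9.64 and 9.65 (interaction -2.41 ± 0.18, limma adjusted p = 8.3e-04).

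Of 37 measured monocyte genes, 22 fell and 2 rose, with a median of -0.52. In control cells 11 fell and 4 rose (median -0.14). Ccr2, the receptor by which monocytes follow CCL2 out of bone marrow, fell from 10.8 and 10.8 to 8.28 and 8.54 in knockout cells. In controls it fell from 8.11 and 8.04 to 6.23 and 6.08, and the interaction of -0.46 ± 0.13 was not called (limma adjusted p = 0.14). Knockout cells thus stayed above controls at both ages. Thbs1, the matrix protein thrombospondin 1, fell from 12.3 and 12.3 to 10.3 and 9.63. Vcan, the proteoglycan versican, fell by 2.22 ± 0.24, with a control change of -1.62 ± 0.24. Ms4a6c fell by 1.83 ± 0.15, with a control change of -1.41 ± 0.15. Other large falls shared with controls were those of Ece1, an endothelin-cleaving protease (-2.31 ± 0.10 in knockout cells), Adgre5, the gene for CD97 (-1.85 ± 0.12), and Hpgd, which inactivates prostaglandins (-1.83 ± 0.13).

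Among the 12 largest falls were genes of no list. Adgre4, an adhesion receptor related to Adgre1, fell from 9.62 and 9.73 to 5.75 and 5.93. Sorl1, a sorting receptor, fell from 9.12 and 9.07 to 5.63 and 5.34. Adamdec1, a protease known from gut macrophages, fell from 8.32 and 8.90 to 4.75 and 5.37, and Ms4a6b from 8.49 and 7.43 to 4.47 and 4.69. In each of these genes both day 11 values lay at least 2 log2 units under both day 2 values. These genes were drawn among falls without overlap, and 53.8% of all genes had no overlap in either direction. The separation itself is therefore no finding. Outside these 12, Met, the receptor of hepatocyte growth factor, fell from 9.36 and 8.28 to 7.23 and 6.31. The call of Met was lost with only the 4 knockout arrays, with a trended robust prior and without day 11 pool 2.

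Interferon-induced monocyte genes were highest in day 2 pool 1. Ms4a4c, in both the monocyte and the interferon list, read 9.64 in pool 1 and 6.27 in pool 2 at day 2, and 3.96 and 3.41 at day 11. Ifi205, of the interferon list, read 11.2 and 8.42 at day 2 and 6.53 and 5.15 at day 11. Without day 11 pool 2 neither was called (limma adjusted p = 0.0826 for Ms4a4c and 0.0973 for Ifi205). The IFITM genes encode membrane proteins that block virus entry. Ifitm3 fell from 11.6 and 10.1 to 7.48 and 6.66, also with pool 1 the higher at day 2. Ifitm6, by contrast, read 7.62 and 7.53 at day 2, with the pools close together, and 4.16 and 4.07 at day 11. Its control change was 0.16 ± 0.07, and the interaction was -3.62 ± 0.10 (limma adjusted p = 1.5e-05).

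Genes of macrophages in other tissues and in the lung interstitium fell in part, 15 of 42 measured, while 3 rose. Controls had 4 falls and 1 rise in this list. C1qa, a chain of the complement starter C1q, fell from 10.3 and 9.51 to 6.55 and 6.50, against 5.27 and 5.44 in day 11 controls. Its partners C1qb and C1qc fell as well, with differences of -2.61 ± 0.12 and -3.07 ± 0.13. The knockout pools of day 11 stayed above the controls in C1qa. Cx3cr1, the fractalkine receptor of monocytes and resident macrophages, fell from 10.2 and 10.3 to 7.38 and 7.29. Tmem176b fell from 8.80 and 9.04 to 5.99 and 6.63. Trem2, a lipid receptor of macrophages, went the other way, from 10.3 and 10.3 to 10.8 and 10.8, while its control change of -0.10 ± 0.07 was not called. The 3 rises came to 1 without day 2 pool 1, without day 11 pool 1 or without day 11 pool 2.

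Receptors for particles and antibodies moved both ways, with 6 falls and 5 rises among 40 phagocytic and scavenger receptors and 3 rises without day 11 pool 1. Stab1, a scavenger receptor, fell from 8.45 and 7.23 to 5.60 and 5.42. Fcgr4, an activating Fc receptor, fell from 9.76 and 9.21 to 7.76 and 6.69. Colec12, another scavenger receptor, rose by 1.17 ± 0.13.

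MHC class II genes fell in knockout cells. H2-Ab1, a chain of the class II molecule, read 11.6 and 11.6 at day 2 and 8.11 and 9.38 at day 11. H2-Aa went from 11.5 and 11.6 to 8.45 and 9.53 and H2-Eb1 from 11.1 and 11.3 to 8.01 and 9.18. In all 3 genes day 11 pool 1 was lower than pool 2, and both were below day 2. In control cells H2-Ab1 read 7.65 and 7.51 and then 7.83 and 8.24, and the interaction was -3.29 ± 0.49 (limma adjusted p = 0.014). Of 17 measured genes of class II presentation and costimulation, 11 fell and none rose, with a median of -0.69, while in controls none fell and 2 rose. The interaction was called for 9 of the 17, each negative, beside 3.27% of all genes in either direction. That count came to 3 and 4 without control day 2 pool 1 and pool 2, to 4 without control day 11 pool 2, and to between 7 and 10 without any other pool. H2-Ab1 and H2-Aa were among those lost without these 3 control pools, and H2-Eb1 was lost without any 1 control or day 2 knockout pool. Ciita, the master activator of class II genes, fell from 6.61 and 6.58 to 4.98 and 5.17. The costimulatory gene Cd86 fell by 0.69 ± 0.10 and Cd83 fell by 0.69 ± 0.07. Cd40 fell from 8.18 and 6.39 to 4.85 and 4.86, with a call that was lost without day 11 pool 1 (limma adjusted p = 0.0501) or pool 2 (0.0582). H2-DMa, a class II chaperone, read 11.2 and 11.4 and then 11.3 and 11.4.

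Markers of dendritic cells moved with class II. Of 22 measured, 11 fell and 1 rose. The mean level of the list was 7.05 in both day 2 knockout pools and 6.06 and 6.25 at day 11, and controls ranged from 5.72 to 6.11. Cd209a, a lectin of monocyte-derived dendritic cells, fell from 8.81 and 9.63 to 5.28 and 5.72. Mgl2, another lectin, fell from 8.26 and 8.70 to 5.16 and 6.15, and Kmo, an enzyme of tryptophan breakdown, from 5.29 and 6.05 to 3.70 and 3.40. Ccl22, a chemokine of activated dendritic cells, fell from 7.30 and 6.82 to 5.21 and 5.46. Flt3, the growth factor receptor of conventional dendritic cells, went from 5.51 and 5.44 to 4.28 and 4.47. Xcr1 and Zbtb46, which define conventional dendritic cells, lay under the array median on all knockout arrays, at 4.39 and 4.41 and 5.12 and 5.33 at day 2. Clec9a, another dendritic marker, rose in both genotypes, from 7.24 and 7.02 to 8.78 and 9.28 in knockout and from 4.55 and 4.73 to 6.14 and 5.82 in control cells. The part of any dendritic cells within the gate in the class II falls was not tested.

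Neutrophil markers were lower at day 11 in part. Of 20 measured, 10 fell and 1 rose, with list means of 6.36 and 6.21 at day 2 and 5.62 and 5.48 at day 11. The gene that rose was Cxcr1, by 1.33 to 1.86 over the 16 alternative settings. Ngp, a granule protein, fell from 5.99 and 6.29 to 3.82 and 4.04. Stfa1, a stefin with near-identical copies, fell from 8.24 and 7.46 to 5.36 and 4.69. Csf3r, the G-CSF receptor, which monocytes express too, fell from 8.92 and 8.69 to 7.25 and 6.51. The granule proteases Mpo, Elane, Prtn3 and Ctsg lay under the array median on all 4 knockout arrays, with Mpo the highest at 4.93 and 4.96 and then 4.96 and 5.02. Lcn2, an iron-trapping protein of granules, fell from 8.78 and 7.76 to 6.34 and 5.04.

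Markers of other cell types were counted in the same way. Of 21 genes of alveolar epithelium 6 fell and 1 rose. The falls came to 10 without day 2 pool 1, to 3 without day 11 pool 1 and to 2 without day 11 pool 2. Sftpc, the surfactant protein C gene, read 8.57 and 9.27 at day 2 and 7.84 and 7.42 at day 11, and lost its call without day 11 pool 2 (limma adjusted p = 0.0913). Of 24 endothelial genes 5 fell, or 3 without day 11 pool 1, and 2 rose, with Pecam1, which monocytes also express, from 7.41 and 7.43 to 5.40 and 5.64 and Vwf from 8.09 and 8.39 to 9.25 and 9.32. Of 24 genes of T, NK and innate lymphoid cells 2 fell, and 22 lay under the array median on every array. Among 13 B cell genes, 11 of them under the median on every array, 1 fell and 1 rose. The one that fell, Cd79b, read 8.06 and 8.11 and then 5.92 and 5.85, while its partner Cd79a was at 4.41 and 4.41 and 4.53 and 4.33. Of 16 mast cell and basophil genes 4 fell and 1 rose, and 15 lay under the array median on every array. Hdc had the largest of these falls. Of 10 eosinophil genes 1 fell and 1 rose, and of 17 fibroblast and smooth muscle genes 2 fell. Of 8 erythroid genes none was called. Beside these counts, 6.71% of all genes fell and 8.81% rose. The endothelial rises and the T, NK and B cell counts were near these shares. The part of stray cells in the falls was not tested.

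Transcription factors of macrophages and dendritic cells were called in 20 of 53 cases, 13 lower and 7 higher. Runx3, a factor of dendritic and lymphoid cells, fell from 9.44 and 9.07 to 6.09 and 6.11, beside 5.76 and 5.79 in day 11 controls. Maf, which drives C1q and other genes of resident macrophages, fell from 8.56 and 7.80 to 6.54 and 5.96. Irf1 fell from 10.5 and 9.58 to 8.44 and 8.22, with pool 1 the higher at day 2. Ahr, the aryl hydrocarbon receptor, fell from 9.53 and 9.58 to 8.24 and 8.40. The rises were smaller in number. Bhlhe41, a repressor that sustains the self-renewal of alveolar macrophages, rose from 9.06 and 9.18 to 10.1 and 10.04, beside 10.1 and 9.998 and then 9.78 and 9.99 in controls. Egr2, a factor of mature alveolar macrophages, rose by 0.55 ± 0.07 in knockout and 0.69 ± 0.07 in control cells. Rarb, a retinoic acid receptor, rose from 4.48 and 4.66 to 5.14 and 5.17. Without day 2 pool 1 the list had 6 falls and 4 rises, and without day 11 pool 2 it had 8 and 4.

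Genes of GM-CSF and TGF-beta signalling fell in 9 of 37 cases and rose in 3. The share that rose was near the 8.81% of all genes, while 6.71% of all genes fell. Smad3, which carries TGF-beta signals to the nucleus, fell from 7.27 and 7.34 to 5.79 and 5.82, with a called interaction of -1.30 ± 0.10. Csf2ra, the GM-CSF receptor chain, read 11.3 and 11.4 and then 11.6 and 11.6, a small rise whose call was lost in 8 of 16 alternative settings. The falls of this list came to 4 without day 2 pool 1 or day 11 pool 1 and to 3 without day 11 pool 2, and no rise was left without the latter. The rises came to 1 without either of the first 2 or either control day 2 pool.

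Genes of cell division fell together. Of 60 measured genes of mitosis and cytokinesis 39 fell and none rose, with a median of -0.55. Of 40 genes of S phase 19 fell and none rose, with a median of -0.40. In control cells 4 and 9 fell, with medians of -0.26 and -0.22. No interaction was called in either list with all arrays, so that a larger change in knockout cells was not shown for these genes. Without knockout day 11 pool 1, 4 mitosis and 2 S phase interactions were called, each negative. Without day 11 pool 2, 23 mitosis genes were called lower.

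Ccnb2, the cyclin that takes cells into mitosis, read 10.2 and 10.3 at day 2 and 9.55 and 8.97 at day 11 in knockout cells. Control cells read 10.97 and 11.1 and then 10.7 and 10.8. Kif22, a chromosome motor, fell from 7.18 and 7.30 to 6.44 and 6.13. Bub1, a kinase of the spindle checkpoint, fell from 8.13 and 7.90 to 7.10 and 6.87. Among S phase genes, Uhrf1, which keeps DNA methylation through replication, fell from 7.54 and 7.51 to 6.55 and 6.22. Mcm2, a subunit of the replicative helicase, fell from 8.71 and 8.73 to 8.06 and 7.71. At both ages the knockout values of Ccnb2, Kif22, Bub1, Uhrf1 and Mcm2 lay below the control values. Ccng1, a p53-induced cyclin of the G1 list, rose by 0.48 ± 0.07.

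Promoters of mitotic genes share short elements, and a pair is shown here because both genes fell and both windows hold the letters of each element. The cell cycle homology region (CHR, written TTTGAA) is bound by the DREAM complex, which silences mitotic genes in resting cells, and the CCAAT box is bound by NF-Y. Windows ran from 250 bases before to 50 after each RefSeq gene start (GRCm38.p6) and were searched on both strands. TTTGAA stood in 41 of the 58 windows found for the mitosis list (70.7%) and in 17.9% of all 32851 windows. CCAAT stood in 43 of the 58 (74.1%) and in 37.4% of all. Both stood in 35 of the 58 (60.3%) against 6.95% of all. In the 42 windows of the S phase list TTTGAA stood in 6 (14.3%). The windows are printed 5′ to 3′ on the gene's strand, with matches on either strand in capitals. Ccnb2's window is chr9:70421505-70421804 on the minus strand and Kif22's is chr7:127042371-127042670 on the minus strand.
Ccnb2: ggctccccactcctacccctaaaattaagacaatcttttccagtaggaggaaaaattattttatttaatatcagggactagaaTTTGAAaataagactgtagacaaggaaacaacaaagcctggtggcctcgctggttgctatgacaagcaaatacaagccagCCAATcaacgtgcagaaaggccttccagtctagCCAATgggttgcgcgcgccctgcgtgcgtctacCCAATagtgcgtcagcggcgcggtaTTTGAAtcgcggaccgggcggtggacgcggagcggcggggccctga
Kif22: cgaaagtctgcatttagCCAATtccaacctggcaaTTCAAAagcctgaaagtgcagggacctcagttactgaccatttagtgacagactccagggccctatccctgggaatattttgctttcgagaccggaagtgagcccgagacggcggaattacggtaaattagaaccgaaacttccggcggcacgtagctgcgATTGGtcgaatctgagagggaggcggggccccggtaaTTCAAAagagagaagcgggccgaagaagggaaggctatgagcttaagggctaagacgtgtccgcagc
Genes outside the cell cycle lists were counted too. Of 987 other genes with both elements 6.08% were called lower in knockout cells, beside 6.42% of 13637 genes without the pair.

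**Figure D3:**
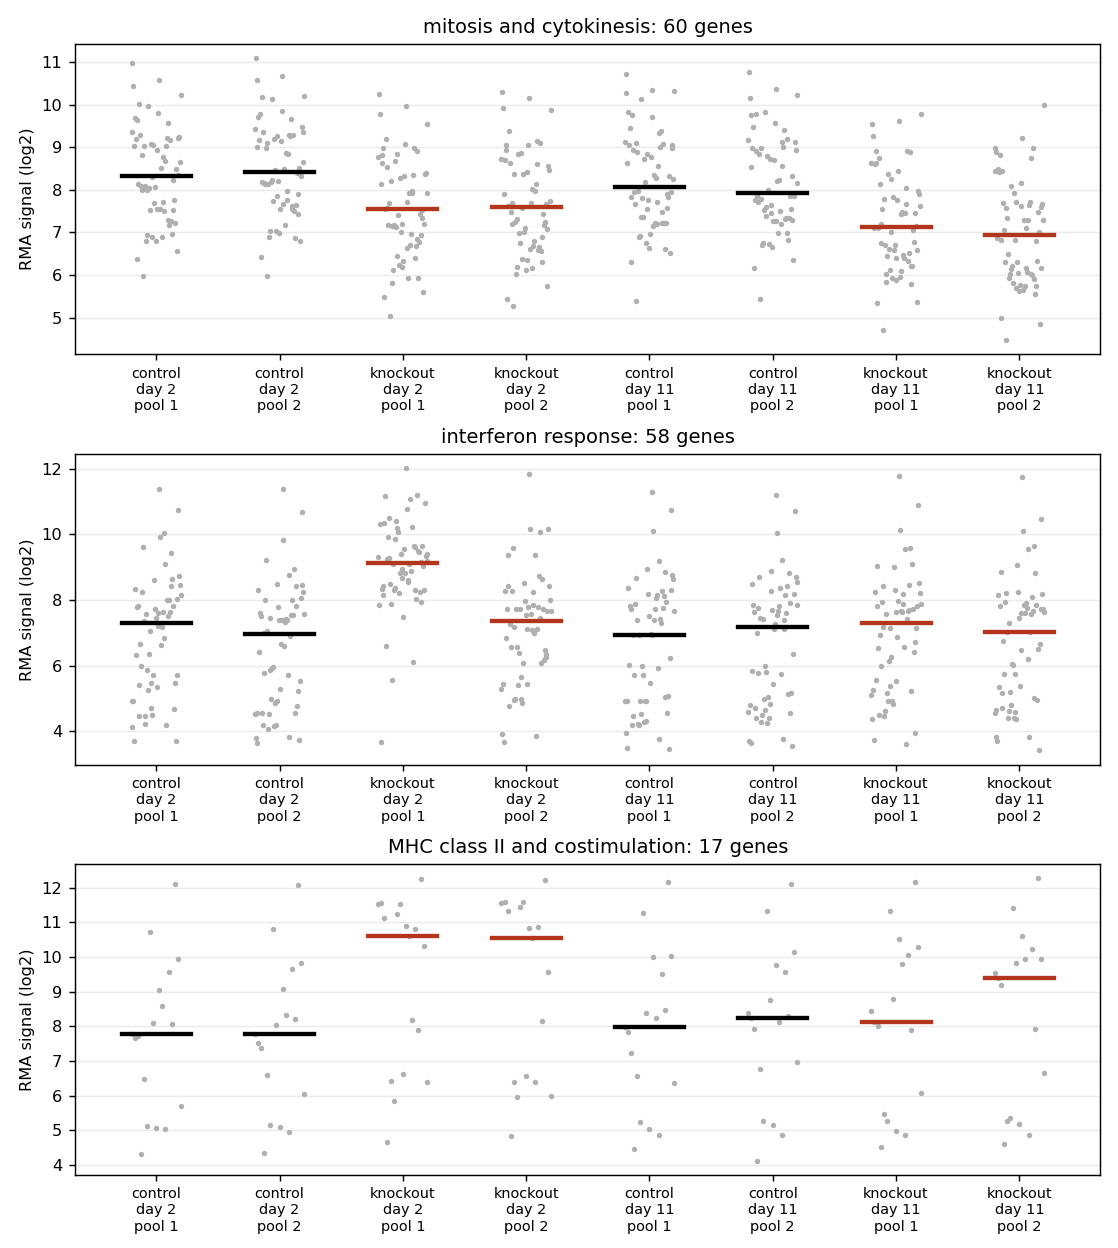
RMA signal (log2) of every measured member (grey points) of 3 gene lists on each of the 8 arrays, with a bar at the median, red for knockout and black for control pools. The mitosis medians of day 11 knockout pools (7.13 and 6.93) lie below those of day 2 (7.55 and 7.59), and the interferon median of day 2 knockout pool 1 (9.13) stands above the other 7 arrays.

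The interferon list had the lowest median of the 40 lists, -0.94, and its fall rested on 1 pool. Its median level was 9.13 in day 2 pool 1, 7.36 in day 2 pool 2, and 7.29 and 7.02 in the day 11 pools. Of 58 measured members 7 were called lower with all arrays and none higher. Without day 2 pool 1, 9 were lower and 2 higher, with a median of -0.10. Without day 2 pool 2, 52 were lower, with a median of -1.64. Without day 11 pool 1, 4 were lower, and without day 11 pool 2, 2 were. Ifit3, an interferon-induced antiviral protein, read 10.3 and 5.44 in day 2 pools 1 and 2 and 5.25 and 4.63 at day 11. Usp18, which dampens interferon signalling, read 10.1 and 5.66 and then 6.27 and 5.73. Nos2, the inducible nitric oxide synthase, which is outside the list, read 9.76 and 4.77 and then 4.56 and 4.42. In each of these genes day 2 pool 2 was close to the day 11 pools. No interaction was called in the list with all arrays, 3 were called without day 2 pool 1 and 47 without day 2 pool 2, each negative.

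The core of the interferon-stimulated response element (AAANNGAAA, N being any base) was searched in the same windows on both strands. It stood in 38 of the 64 windows found for the interferon list (59.4%) and in 10.6% of all. The promoter of Rsad2 is shown because this gene differed most between the day 2 pools and its window holds the core on each strand. The window is chr12:26456403-26456702 on the minus strand (GRCm38.p6), with matches in capitals.
Rsad2: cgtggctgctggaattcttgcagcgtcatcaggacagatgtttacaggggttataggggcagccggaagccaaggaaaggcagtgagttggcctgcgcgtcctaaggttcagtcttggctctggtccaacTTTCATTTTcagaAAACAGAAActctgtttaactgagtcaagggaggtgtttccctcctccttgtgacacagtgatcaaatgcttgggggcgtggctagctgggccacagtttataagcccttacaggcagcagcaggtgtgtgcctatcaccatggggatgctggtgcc
Of 1611 genes with the core outside the list, 1.18% were higher by more than 1 in day 2 pool 1 than in pool 2, beside 0.39% of 13068 genes without it. Among the same genes 6.52% and 6.70% were called lower from day 2 to day 11.

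Inflammatory cytokine and chemokine genes fell in 10 of 47 cases and rose in 1. The falls numbered 4 without day 2 pool 1, 18 without day 2 pool 2, and 5 without either day 11 pool. Il6 was the gene that rose, from 8.97 and 8.99 to 9.88 and 10.3, and in controls it rose from 7.54 and 7.91 to 9.01 and 9.42. Vegfa, the endothelial growth factor, fell from 10.1 and 9.71 to 8.44 and 7.92, with a control change of -1.03 ± 0.20. Ccl9, a chemokine of myeloid cells, fell by 0.97 ± 0.10, with a control change of -0.69 ± 0.10. Of 23 genes induced by tissue dissociation 5 fell and 1 rose. Dusp2, a phosphatase of that list, fell by 1.13 ± 0.08. The falls of the dissociation list came to 2 without day 2 pool 1 and to 1 without any of the other 3 knockout pools.

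Genes of metabolism changed in smaller steps. Beside their counts, 8.81% of all genes rose and 6.71% fell. Of 35 genes of glycolysis and the hypoxia response 7 fell and 2 rose, and 14 fell without day 2 pool 2. Ndrg1, a hypoxia gene, fell from 7.65 and 7.50 to 6.74 and 6.40, with a control change of -0.88 ± 0.13. Slc16a3, a lactate exporter, fell by 0.77 ± 0.09. Of 56 genes of oxidative phosphorylation 4 fell and 1 rose. The share that fell was near the 6.71% of all genes, and none was called without day 2 pool 1. Cycs, the gene for cytochrome c, had the largest difference of these, -0.53 ± 0.09, and its call was lost without day 11 pool 2 as well. Of 50 ribosomal protein genes Rpl22 alone was called, with a rise of 0.26 ± 0.07 whose call was lost in 12 of 16 settings.

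Lysosome and antioxidant genes rose in part. Of 48 lysosome genes 9 rose and 2 fell, and the rises came to 2 without day 2 pool 1, 3 without day 11 pool 1 and 5 without day 11 pool 2. Cd63, a tetraspanin of late endosomes, rose in knockout cells from 10.9 and 10.9 to 11.3 and 11.3 and fell in controls from 10.8 and 10.7 to 9.39 and 9.48. Of 34 genes of glutathione and NRF2 defence 6 rose and 1 fell, and the rises came to 2 without day 2 pool 1 or day 11 pool 1. Gstm1, a glutathione transferase, rose from 9.98 and 10.4 to 11.3 and 11.2. Mgst2, a microsomal transferase, rose from 6.14 and 6.21 to 7.31 and 6.89. Slc48a1, which moves heme out of the lysosome, rose by 0.64 ± 0.09 in knockout and 0.64 ± 0.09 in control cells. The haptoglobin gene Hp fell from 6.99 and 7.03 to 5.75 and 4.77.

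Matrix and adhesion genes fell in 14 of 46 cases and rose in 5, or in 3 without day 2 pool 1. Mmp9, a gelatinase, fell from 6.80 and 6.35 to 4.86 and 4.80. Itgb7, an integrin chain for homing to gut, fell from 7.37 and 6.77 to 5.56 and 5.58. Neither was called in controls. Among imprinted and fetal growth genes 5 of 31 fell and 1 rose. Mest, an imprinted gene of fetal growth, fell from 6.28 and 6.34 to 5.13 and 5.35, with a control change of -0.74 ± 0.11. Peg3, another, fell from 5.17 and 5.37 to 4.83 and 4.80, levels that lie near or under the array median. The falls of this list came to 3 without day 2 pool 1 or without day 11 pool 2, and to 9 without day 2 pool 2.

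**Figure D4:**
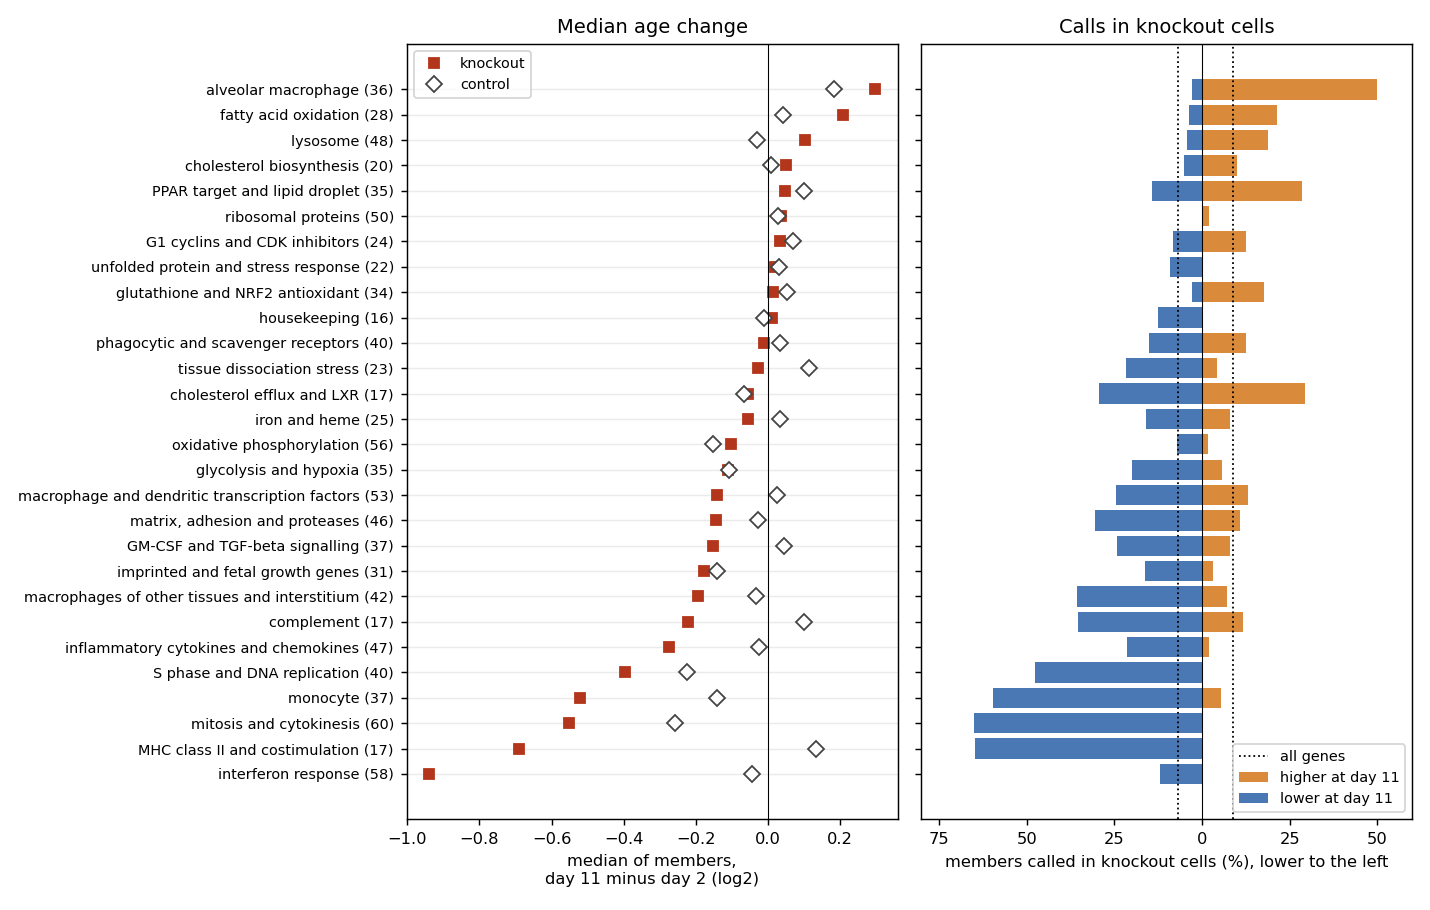
Left, the median day 11 minus day 2 difference (log2) of the measured members of each gene list in knockout cells (red squares) and control cells (open diamonds), with the number measured in brackets. Right, the share of members called higher or lower in knockout cells, with dotted lines at 8.81% and 6.71% for all genes. The alveolar macrophage list has the highest share of rises (18 of 36, the gate gene Siglecf among them). The mitosis (39 of 60), class II (11 of 17) and monocyte (22 of 37) lists have the highest shares of falls.

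Where knockout and control cells parted with age was tested by the interaction, the knockout change minus the control change. It was called for 615 genes, 242 with a positive and 373 with a negative value. Of the 2915 genes called in knockout cells, 494 (16.9%) were called in the interaction. Knockout calls without a call in controls numbered 2369, and the interaction was called for 411 of these, so for the others a difference between genotypes was not shown. Of 450 genes called in controls but not in knockout cells, 111 were called in the interaction. The interaction count moved with single pools, to 942 without knockout day 2 pool 2 and to 405 without knockout day 11 pool 2. It came to 197 and 215 without control day 2 pool 1 and pool 2, and to 254 and 248 without control day 11 pool 1 and pool 2. The 511 shared calls came to 136 and 158 without control day 2 pool 1 and pool 2, and to 147 and 205 without control day 11 pool 1 and pool 2.

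Among genes called both in knockout cells and in the interaction, Fstl1 had the largest positive value. It encodes a secreted glycoprotein that antagonises BMP signals. It rose in knockout cells from 9.07 and 9.19 to 10.8 and 10.2 and fell in control cells from 9.02 and 8.95 to 7.22 and 7.18 (interaction 3.15 ± 0.26, limma adjusted p = 0.0011). Ecm1, an extracellular matrix protein, rose from 10.3 and 10.3 to 10.9 and 10.7 in knockout cells and fell in controls from 8.37 and 8.28 to 6.35 and 6.21. The knockout call of Ecm1 was lost without day 2 pool 1 (limma adjusted p = 0.0718) and without day 11 pool 1 (0.0811). Elovl7, which lengthens fatty acids, rose by 1.10 ± 0.11 and had a control change of -0.78 ± 0.11. Tnfsf8, the ligand of CD30, rose from 4.41 and 4.43 to 6.07 and 5.96 with a control change of -0.10 ± 0.08. Fabp7, the brain-type fatty acid carrier, rose by 0.83 ± 0.18 with a control change of -1.25 ± 0.18, and its knockout call was lost without day 11 pool 1 (limma adjusted p = 0.0785) or pool 2 (0.0752).

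The largest negative value in that set was that of Fabp1, the liver-type fatty acid carrier. In control cells it rose from 5.07 and 5.56 to 9.89 and 9.54, and in knockout cells it read 4.26 and 4.27 and then 4.94 and 4.90. The interaction was -3.75 ± 0.23 (limma adjusted p = 4.0e-04), while the small knockout rise lost its call without any 1 of the 4 knockout pools (limma adjusted p from 0.0787 to 0.123). Ccl17, a chemokine for CCR4, fell in knockout cells from 9.75 and 9.73 to 8.09 and 8.92 and rose in controls from 8.64 and 8.53 to 10.4 and 10.98. The interaction was -3.35 ± 0.37 (limma adjusted p = 0.0042), and the knockout fall on its own lost its call without day 2 pool 1 (0.0688) or day 11 pool 1 (0.0519). The other 6 of the 8 largest negative values belonged to falls described above, those of Ifitm6, Cd209a, Clec4a1, Ifitm3, H2-Ab1 and Plac8. Gpx3, a secreted peroxidase, fell by less in knockout cells (-0.58 ± 0.12) than in controls (-1.83 ± 0.12), and its knockout call was lost without day 2 pool 2 (limma adjusted p = 0.051) or day 11 pool 2 (0.068).

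The array also carried probe sets for microRNA genes, which read the hairpin or its host transcript rather than the mature microRNA. Of 303 measured, 10 rose and 13 fell in knockout cells (7.59% called, against 15.5% of all genes). The 11 called with a difference of at least 0.5 were taken up after their values were seen. Mature products of 9 of them are printed to show their seeds, bases 2 to 8 in capitals, from RefSeq (GRCm38.p6). The genes of the first 3 lie in 1 cluster on chromosome 13. The products miR-221-3p and miR-222-3p share a seed, and no other printed pair does.
miR-27b-3p: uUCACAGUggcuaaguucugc
miR-24-3p: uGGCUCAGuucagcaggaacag
miR-23b-5p: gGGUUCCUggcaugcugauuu
miR-221-3p: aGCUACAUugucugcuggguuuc
miR-222-3p: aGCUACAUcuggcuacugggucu
miR-181b-5p: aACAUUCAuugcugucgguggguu
miR-15a-5p: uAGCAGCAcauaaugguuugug
miR-142a-3p: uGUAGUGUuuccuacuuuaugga
miR-155-5p: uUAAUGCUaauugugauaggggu
Which arm the cells made cannot be read from these probe sets.

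The chromosome 13 cluster rose in knockout cells. Mir23b went from 6.13 and 6.19 to 6.99 and 6.79, while controls read 5.97 and 5.82 and then 5.96 and 5.87. Mir27b went from 4.39 and 4.82 to 5.75 and 5.46, while controls read 4.19 and 4.34 and then 4.26 and 4.18. In both genes the day 11 knockout pools were the highest of the 8 arrays. The interaction was called for Mir23b (0.71 ± 0.13, limma adjusted p = 0.026) and Mir27b (1.05 ± 0.21, limma adjusted p = 0.041). Both calls were lost without any 1 control pool and without knockout day 2 pool 1 or day 11 pool 1 (limma adjusted p up to 0.11 and 0.151), and that of Mir27b with a replicate block too. Mir24-1 rose from 4.03 and 4.07 to 4.77 and 4.54, with no called interaction, and its knockout call was lost without day 11 pool 1 (limma adjusted p = 0.0505). Mir221 and Mir222, neighbours on the X chromosome, rose too, by 0.61 ± 0.11 and 0.56 ± 0.09. Mir222 lost its call where only the pools with RNA of both sexes were compared, and Mir221 where only the 4 knockout arrays were fitted. Mir181b-1 rose from 5.14 and 5.68 to 6.78 and 7.12, and its interaction missed the threshold (1.36 ± 0.29, limma adjusted p = 0.051).

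Mir677 rose by about the same step in both genotypes, from 6.16 and 6.00 to 6.76 and 6.91 in knockout cells and from 5.96 and 5.94 to 6.67 and 6.68 in controls. Mir568 rose by 0.72 ± 0.19, and its call was lost in 9 of 16 alternative settings.

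The other 3 of the 11 fell, and the calls of Mir142 and Mir155 were lost without single pools. Mir15a fell from 7.86 and 7.55 to 6.82 and 6.76. Mir142, a hairpin of blood cells, fell from 7.29 and 7.55 to 6.95 and 6.69, without a call when day 11 pool 2 was left out (limma adjusted p = 0.0641). Mir155, which is induced by inflammatory signals, read 6.03 and 5.27 at day 2 and 4.95 and 4.36 at day 11. Its call was lost without day 2 pool 1 (limma adjusted p = 0.13), without day 11 pool 2 (0.179) and without any 1 control pool (0.0618 to 0.0666).

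**Figure D5:**
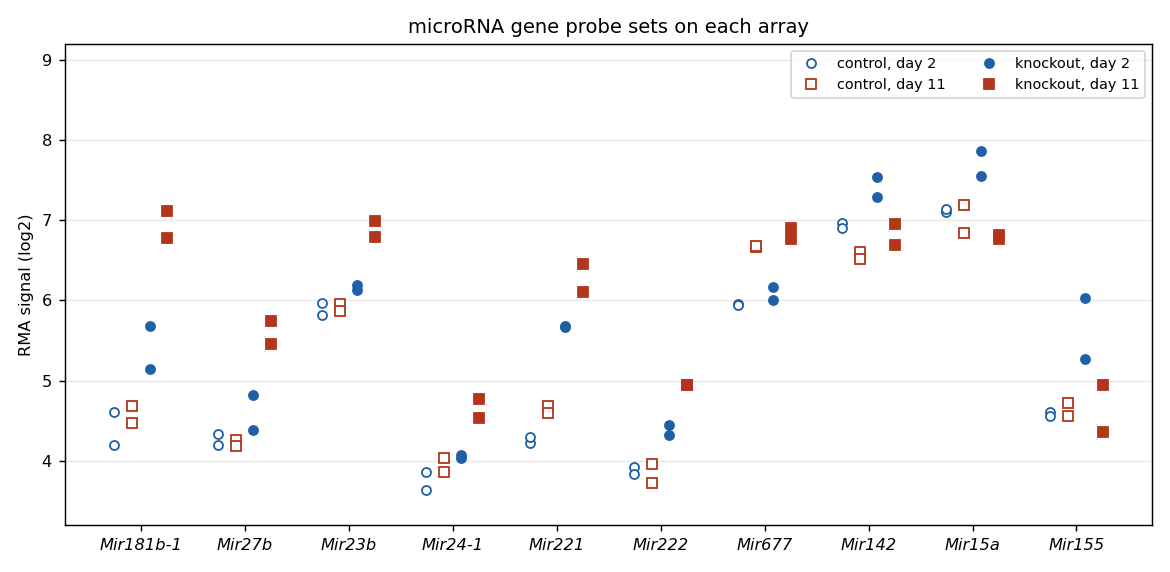
RMA signal (log2) of 10 microRNA gene probe sets on each of the 8 arrays, with filled symbols for knockout and open symbols for control pools, circles for day 2 and squares for day 11. For Mir181b-1, Mir27b, Mir23b and Mir24-1 the 2 day 11 knockout pools are the highest of the 8 arrays.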

How the data were processed

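RNA of 8 sorted pools was hybridised to Affymetrix whole-transcript arrays. The submitters' processing notes name RMA and R 2.15.2, and the deposited values, on the log2 scale, are used as the authors made them. RMA forces a common distribution on the arrays. Of 28874 probe sets, 21159 had 1 gene symbol in the platform's annotation, and each of 18782 genes kept its probe set of highest mean signal. Replicates are separate pools of 2 mice, and the number of arrays limits the precision.

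All 8 arrays were fitted with 1 mean per group in limma 3.58.1 (R 4.3.3), with moderated variances and Benjamini-Hochberg adjustment over 18782 genes, called under an adjusted p of 0.05. The fit was also run on simulated data with independent noise for each gene. Such data do not show how the fit behaves where a pool shifts many genes together. Contrasts were knockout day 11 minus day 2, the same in controls, and the difference of both (interaction). Knockout and control contrasts share the estimate of the spread and no array.

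Members, gene lists and tests were chosen with earlier results of these data known, so no list count is independent evidence. The text drew genes by rule. It took the 12 largest rises and falls called without overlap, up to 4 called members per list and direction, the 8 largest changes shared by the genotypes in each direction, the 8 largest interactions of each sign among genes called in both tests, and Pparg, the gate genes, sex-linked genes, Fabp4 and Cidec. The microRNA and small nucleolar RNA genes, the genes named for pool differences (Rsad2, Ifit3, Usp18, Nos2, Mmp2), Treml4, and defining or partner genes (Marco, Krt79, Car4, Cd68, Ciita, Cd86, Cd83, H2-DMa, Flt3, Xcr1, Zbtb46, Cd79a, Mpo, Elane, Prtn3, Ctsg) were chosen after their values were seen. Alternatives were the 4 knockout arrays alone, a trended robust prior, a floor of 6 on the highest group mean and the mean of a gene's probe sets. Others were quantile normalization, centring on housekeeping genes, a replicate block, a test against a difference of 0.5 and each array left out. Added after seeing the data was a fit of only the knockout pools with RNA of both sexes, which kept all control pools.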

Additional observations from a re-analysis of the deposited data

Results flagged for a closer look

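Of the genes named here, Cxcr1 not counted, 61 differed between the genotypes in their change from day 2 to day 11. Each had a called interaction (limma, adjusted over all genes), 19 with a positive and 42 with a negative value. The value in brackets is the knockout change minus the control change on the log2 scale. The rule that named the genes drew some of them for a large interaction, so their number says nothing of genes at large. Fstl1 (3.15), Ecm1 (2.47), Fabp7 (2.08), Elovl7 (1.88) and Cd63 (1.67) rose in knockout cells and fell in control cells. A called rise in knockout cells stood against no called change in controls for Phlda3 (1.89), Mkx (1.81), Tnfsf8 (1.70), Bhlhe41 (1.11), Vwf (0.99), Rarb (0.67), Trem2 (0.58), Mir27b (1.05) and Mir23b (0.71). Both genotypes rose, knockout cells further, for Ephx1 (1.67), Kcnn3 (1.51) and Plxdc1 (1.24). Positive values with a smaller or no called fall in knockout cells were those of Itgam (1.44) and Gpx3 (1.25).

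Negative values among class II and costimulation genes were those of H2-Ab1 (-3.29), H2-Aa (-2.95), H2-Eb1 (-2.68), Ciita (-1.55) and Cd83 (-0.61). Among dendritic cell genes they were those of Cd209a (-3.59), Mgl2 (-3.02), Kmo (-2.12), Ccl22 (-1.84) and Flt3 (-0.99). Monocyte genes had Clec4a1 (-3.37), Ifitm6 (-3.62), Ifitm3 (-3.32), Plac8 (-3.27), Treml4 (-2.41), Cx3cr1 (-2.09), Fcgr4 (-2.12) and Csf3r (-2.56). Genes of other tissue macrophages had C1qa (-3.03), C1qb (-2.19), C1qc (-2.84) and Tmem176b (-2.39). Large falls outside the lists had Adgre4 (-3.04), Sorl1 (-2.32), Adamdec1 (-2.66) and Ms4a6b (-2.66). Regulators had Runx3 (-2.91), Smad3 (-1.30) and Ahr (-0.88). Neutrophil markers had Ngp (-2.08) and Stfa1 (-2.50). Of all 20 measured neutrophil markers 8 had a negative and 1 a positive called interaction with all arrays. Cxcr1, the marker that rose in knockout cells, was left out of the tally of named genes. The other falls in knockout cells had Pecam1 (-1.82), Mmp9 (-1.77), Itgb7 (-1.63), Abca9 (-1.53), Cyp27a1 (-0.94), Cd79b (-0.80), Dusp2 (-0.76) and Slc16a3 (-0.66). A rise in controls that was smaller or not called in knockout cells gave Fabp1 (-3.75) and Krt79 (-1.08). A fall in knockout cells and a rise in controls gave Ccl17 (-3.35). These values are given without a reason, and the different gates of the genotypes at day 11 cannot be told apart from the genotype in any of them.

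Of these interactions 34 held in all 13 alternative settings, and each of the other 27 was lost without at least 1 control pool. In brackets is the highest limma adjusted p over the settings. Calls lost without a control pool, and kept without each knockout pool, were those of Phlda3 (0.068), Ephx1 (0.0755), Gpx3 (0.0506), Vwf (0.0597), Dusp2 (0.0628), Krt79 (0.105), Itgb7 (0.0769), Kmo (0.0718), Stfa1 (0.0841), H2-Aa (0.0703), Mgl2 (0.0597) and H2-Ab1 (0.0879), and H2-Aa and H2-Ab1 were lost with a trended prior too. Leaving out a knockout pool ended others as well. Plxdc1 (0.129), Cd83 (0.108), Cyp27a1 (0.08) and Ms4a6b (0.0784) were lost without day 11 pool 1. Rarb (0.103) and Trem2 (0.0866) were lost without day 11 pool 1 or day 11 pool 2. Ifitm3 (0.154) was lost without day 11 pool 2. Mkx (0.105) and Fcgr4 (0.17) were lost without day 2 pool 1. Mir27b (0.151), Mir23b (0.11) and Ahr (0.111) were lost without day 2 pool 1 or day 11 pool 1. Slc16a3 (0.143) and Flt3 (0.113) were lost without day 2 pool 1, day 11 pool 1 or day 11 pool 2. H2-Eb1 (0.156) was lost without day 2 pool 1 or day 2 pool 2.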

How the results depend on the processing

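The counts for knockout cells kept both directions in every setting, and their size moved with the setting. With only the 4 knockout arrays 1466 genes were called (773 higher, 693 lower), and with only the 2 pools with RNA of both sexes, a setting chosen after seeing the data, 1568 (741 and 827). Against a difference of 0.5, 275 were called. Leaving out 1 array gave 1541 to 2985 calls (815 to 1714 higher, 723 to 1271 lower), 330 to 541 of at least 2-fold, 197 to 942 interactions and 136 to 657 shared calls. Centring on housekeeping genes moved the share of rises among all calls from 56.8% to 50.3%. The replicate numbers do not pair the pools by any label, and deviations of same-numbered pools correlated by -0.075 to 0.25. With a replicate block 2823 genes were called (1619 higher, 1204 lower), 558 in the interaction and 504 shared. No named gene that was called turned its sign in any setting. Uncalled genes that did were Fabp4 (-0.29 to 0.20 with 1 array left out, 0.053 in the pools of both sexes), Krt79 (-0.14 to 0.25), Marco (-0.48 to 0.10) and the sex genes Xist (-6.80 to 0.036, and 0.452), Uty (-0.011 in the pools of both sexes) and Eif2s3y (-0.098). Uty (3.63) and Eif2s3y (4.53) gained a call without knockout day 2 pool 2, and Marco without knockout day 11 pool 1 and in the pools of both sexes. Of 61 interactions 34 held in all 13 settings tried, 27 were lost in some, and none turned its sign. In the fit of only the 4 knockout arrays Krt19 (adjusted p 0.0549) and Lcn2 (0.05) lost their calls, and in the pools of both sexes Cd63 (0.0669) did. The cause was not tested for any lost call. Dim probe sets near the array median limit small differences.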

Other observations

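Small nucleolar RNA genes, which guide the chemical modification of ribosomal RNA and lie mostly in introns of other genes, were higher at day 11 in both genotypes. Of 60 measured, 22 rose and 1 fell in knockout cells, which is 38.3% called beside 15.5% of all genes, with a median of 0.38. In control cells 16 rose and none fell, with a median of 0.35, beside 2.81% of all genes that rose in controls. In both genotypes 12 rose. No interaction was called in this family with all arrays. Other settings were counted only for its members whose symbols begin with Snor. Of these 2 were called with a replicate block, and fewer or none in each other setting. Snord61 read 3.90 and 4.10 at day 2 and 5.83 and 5.61 at day 11 in knockout cells and 4.39 and 4.63 and then 5.84 and 6.01 in controls. Snord37 read 5.34 and 5.48 and then 6.69 and 6.56 in knockout cells. These genes were chosen after their values were seen, and the yield of short RNAs in the extracts was not measured.

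Probe sets without a gene symbol were tested in a fit over all 28874. Of 5834 such probe sets 305 were called in knockout cells (5.23%), 164 higher and 141 lower. Of 1881 with several symbols 240 were called (12.8%), beside 13.2% of those with 1 symbol. Among 229 called genes with several probe sets, 189 had the same sign in all of them.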
